A study of Mus musculus with 12 samples.

Results

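Pex11a, Acaa2 and Cpt1a are genes of fatty acid oxidation, and each was read by a single catalogue probe chosen by its probe name or by the RefSeq transcript that the probe is assigned to. They are 3 of the 45 catalogue probes that carry a gene name, among 60691 transcript probes on the array, and every such probe was printed in 10 spots. MPC5, a conditionally immortalised mouse podocyte line, had received a control siRNA (siNC, the control group) or an siRNA against METTL3 (Si#METTL3, the knockdown group), and both groups were then kept at 30 mmol/L glucose for 24 h. There were 3 arrays in each group. Each array paired an immunoprecipitated RNA fraction (IP, labelled with Cy5) with the supernatant RNA left by the same precipitation (Sup, labelled with Cy3), which makes 12 samples. The design text calls the replicates biological, so the spread given here is between cultures of 1 cell line. No group at normal glucose was analysed here, and the labels do not name the antibody.

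Fatty acids are broken down in mitochondria and in peroxisomes. Cpt1a encodes carnitine palmitoyltransferase 1A of the outer mitochondrial membrane, which joins long-chain fatty acids to carnitine so that they can be imported, the step at which mitochondrial oxidation is chiefly controlled. Acaa2 encodes the mitochondrial 3-ketoacyl-CoA thiolase, which cleaves acetyl-CoA from the chain in the last reaction of each turn of beta-oxidation. Pex11a encodes a peroxisomal membrane protein that takes part in the elongation and division of peroxisomes, the organelles that shorten very long chains. In podocytes, the filtration cells of the kidney glomerulus, fatty acid oxidation is one of the sources of energy. METTL3 is the catalytic subunit of the complex that writes N6-methyladenosine (m6A) into RNA.

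The probes for the 3 genes gave very different kinds of data. Pex11a was bright in both fractions on all 6 arrays, had a higher IP-to-Sup ratio than the median probe, and varied widely between arrays, with control replicate 2 standing 9.84-fold above the other control arrays in total RNA scaled by the 75th percentile of each array. Acaa2 was well above background in both fractions on all 6 arrays, had a lower IP-to-Sup ratio than the median probe, and its group means of total RNA were both 3.07 with the same scaling. Cpt1a was close to background, with a usable signal in Sup alone. For none of the 3 genes did knockdown and control differ past the test in the IP-to-Sup ratio, IP RNA, Sup RNA or total RNA, where each was measured.

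Across the arrays, 35.1% to 50.3% of transcript probes were well above background in Cy5 and 75.1% to 81.2% in Cy3, and 0 transcript probes were saturated. IP samples correlated with each other at 0.942 to 0.985 and Sup samples at 0.985 to 0.995 over transcript probes, and 0 pairs of samples held identical values. The scan of control replicate 2 was separate from that of the other 5 arrays. None of the 16 m6A-machinery genes and none of the 10 podocyte markers looked for had a named probe, so the loss of METTL3 and the identity of the cells were not analysed here, and the group names rest on the labels. In bulk RNA such as this, fewer cells expressing a gene and less of its RNA per cell cannot be told apart.

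Cpt1a gave a signal near the limit of the array. The processed signal is the intensity after the background and dye steps of the scanner software. In IP that of Cpt1a was 25.4, 8.43 and 26.9 on control replicates 1 to 3 and 23.6, 16.3 and 16.6 on knockdown replicates 1 to 3. Its mean background-subtracted Cy5 signal was -0.12 on control replicate 2 and 0.12 on knockdown replicate 3. Processed values this low are therefore not scaled background-subtracted intensities and give no level. None of the 60 Cpt1a spots was marked well above background in Cy5, so its IP RNA and its IP-to-Sup ratio carry no fold or test here. The raw brightness of these Cy5 spots was 17.9 to 24.4 beside a local background of 16.4 to 18.9.

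In Sup, 49 of the 60 Cpt1a spots were well above background. By array these were 9, 8 and 10 of 10 spots in the control and 10, 2 and 10 of 10 in the knockdown, so that knockdown replicate 2 was the array on which the probe was mostly undetected. The Sup signal was 26.3, 9.05 and 30.4 in the control and 31.4, 12.1 and 23.4 in the knockdown. Raw Cy3 brightness was 15.9 to 19.8 over a local background of 9 to 9.85, so the probe stood above background by a margin that the IP channel did not have.

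Levels between arrays were compared as log2 values less the 75th percentile of the same fraction on the same array. On this scale the Sup RNA of Cpt1a was -3.75, -3.75 and -3.40 in the control and -3.62, -4.37 and -3.51 in the knockdown. Knockdown replicate 2 was lowest, and the other 2 knockdown arrays lay inside the control range. The control mean was -3.64 ± 0.20 and the knockdown mean -3.83 ± 0.47 (SD, n = 3). Knockdown minus control was -0.19, and the 95% interval ran from -0.79 to 0.40, or 0.578-fold to 1.32-fold (limma, adjusted p = 1; exact two-sided permutation p = 0.8). Without knockdown replicate 2 the difference was 0.074, so its direction rested on that array.

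Total RNA, the log2 of the summed fractions, was -3.63, -3.58 and -3.37 for Cpt1a in the control and -3.77, -4.14 and -3.66 in the knockdown. Every knockdown array was below every control array, as for 10.2% of the 47647 probes tested for total RNA. The control mean was -3.53 ± 0.14 and the knockdown mean -3.86 ± 0.25 (SD, n = 3). The difference, knockdown minus control, was -0.33, and the 95% interval ran from -0.80 to 0.14 (limma, unadjusted p = 0.144, adjusted p = 0.807). The exact two-sided permutation p was 0.1, the smallest that 3 arrays against 3 can give. The groups of Cpt1a were apart in this way in 3 of 9 settings of normalisation, scaling and spot use. These were the setting reported here, the median of spots, and marked spots left out of both channels. For total RNA that last setting equals the reported one by construction. The groups overlapped in the other 6. With quantile normalisation, for example, knockdown replicates 1 and 3 were at 5.22 and 5.23 and control replicate 2 at 5.17. Over all tested probes the median difference was -0.15, and relative to it the difference of Cpt1a was -0.18. The sum includes the Cy5 signal that was not above background. In Sup alone the groups overlapped, so they were apart only in the sum that holds this Cy5 signal. With no scaling of the arrays the difference was 0.073.

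Acaa2, the thiolase, was measured with little noise between spots. Its IP signal was 2265, 753 and 1818 on control replicates 1 to 3 and 2472, 1829 and 1815 on knockdown replicates 1 to 3. Its Sup signal was 2915, 1201 and 2898 in the control and 3551, 2517 and 2463 in the knockdown. Control replicate 2 was lowest in both fractions before scaling. Its raw brightness was 707 in Cy3, beside 734 to 859 on the other arrays, and 251 in Cy5, beside 204 to 492. Its dye-normalisation factors were the lowest of the 6 arrays, at 2.98 in Cy5 and 1.82 in Cy3. Whether they account for its low processed signal was not tested.

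All 60 Acaa2 spots were well above background in both channels, and 59 of 60 were used in each. The SD between the spots of 1 array, a technical spread on the log2 scale, was 0.086 to 0.17 in IP and 0.018 to 0.070 in Sup. Spots of a probe share their hybridisation and are not replicates of a condition.

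The IP-to-Sup ratio of Acaa2, on the log2 scale with the array median at 0, was -0.47, -0.69 and -0.73 in the control and -0.63, -0.59 and -0.53 in the knockdown. It was below 0 on all 6 arrays, and the 3 knockdown arrays lay within the control range. Dyes were not swapped, so a dye bias of the probe is part of this level. It would cancel from the difference between groups only if it were equal on all arrays, which was not tested. The control mean ratio was -0.63 ± 0.14 and the knockdown mean -0.58 ± 0.05 (SD, n = 3). Knockdown minus control was 0.047, and the 95% interval ran from -0.35 to 0.44, or 0.785-fold to 1.36-fold (limma, adjusted p = 1; exact two-sided permutation p = 0.6).

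The fractions of Acaa2 were then compared on their own. IP RNA was 2.86, 2.84 and 2.65 in the control and 2.75, 2.94 and 2.85 in the knockdown, a difference of 0.064 (95% interval from -0.43 to 0.56; limma, adjusted p = 0.946). Sup RNA was 3.04, 3.30 and 3.18 in the control and 3.20, 3.33 and 3.21 in the knockdown, a difference of 0.077 (95% interval from -0.29 to 0.45; limma, adjusted p = 1). In both fractions the groups overlapped. For IP RNA they did so in 7 of 10 settings, and in the other 3, spike-in centring, outlier spots kept and the authors' deposited table, every knockdown array was the higher; for the ratio they did so in 9 of 10, and with quantile normalisation every knockdown array was the lower.

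The total RNA of Acaa2 was 3.00, 3.21 and 2.99 in the control and 3.00, 3.16 and 3.06 in the knockdown. Replicate 2 was the highest array of each group here and in 5 of 10 settings in all, and the lowest of each group with quantile normalisation. The mean was 3.07 ± 0.12 in the control and 3.07 ± 0.08 in the knockdown (SD, n = 3), which differ by 0.0066, and the 95% interval ran from -0.41 to 0.42 (limma, adjusted p = 0.995; exact two-sided permutation p = 0.9). This interval, 0.755-fold to 1.34-fold, holds for this scaling alone. With no centring or scaling the difference was 0.41 with a standard error of 0.58, and in the authors' deposited table it was 0.26 with a standard error of 0.18 and each knockdown array above each control array. For the ratio, IP RNA and total RNA the sign of the Acaa2 difference rested on single arrays. Without control replicate 3 the ratio difference was -0.0016 and that of IP RNA -0.0034, and without control replicate 1, control replicate 3 or knockdown replicate 2 that of total RNA was -0.026, -0.032 and -0.038.

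**Figure D1:**
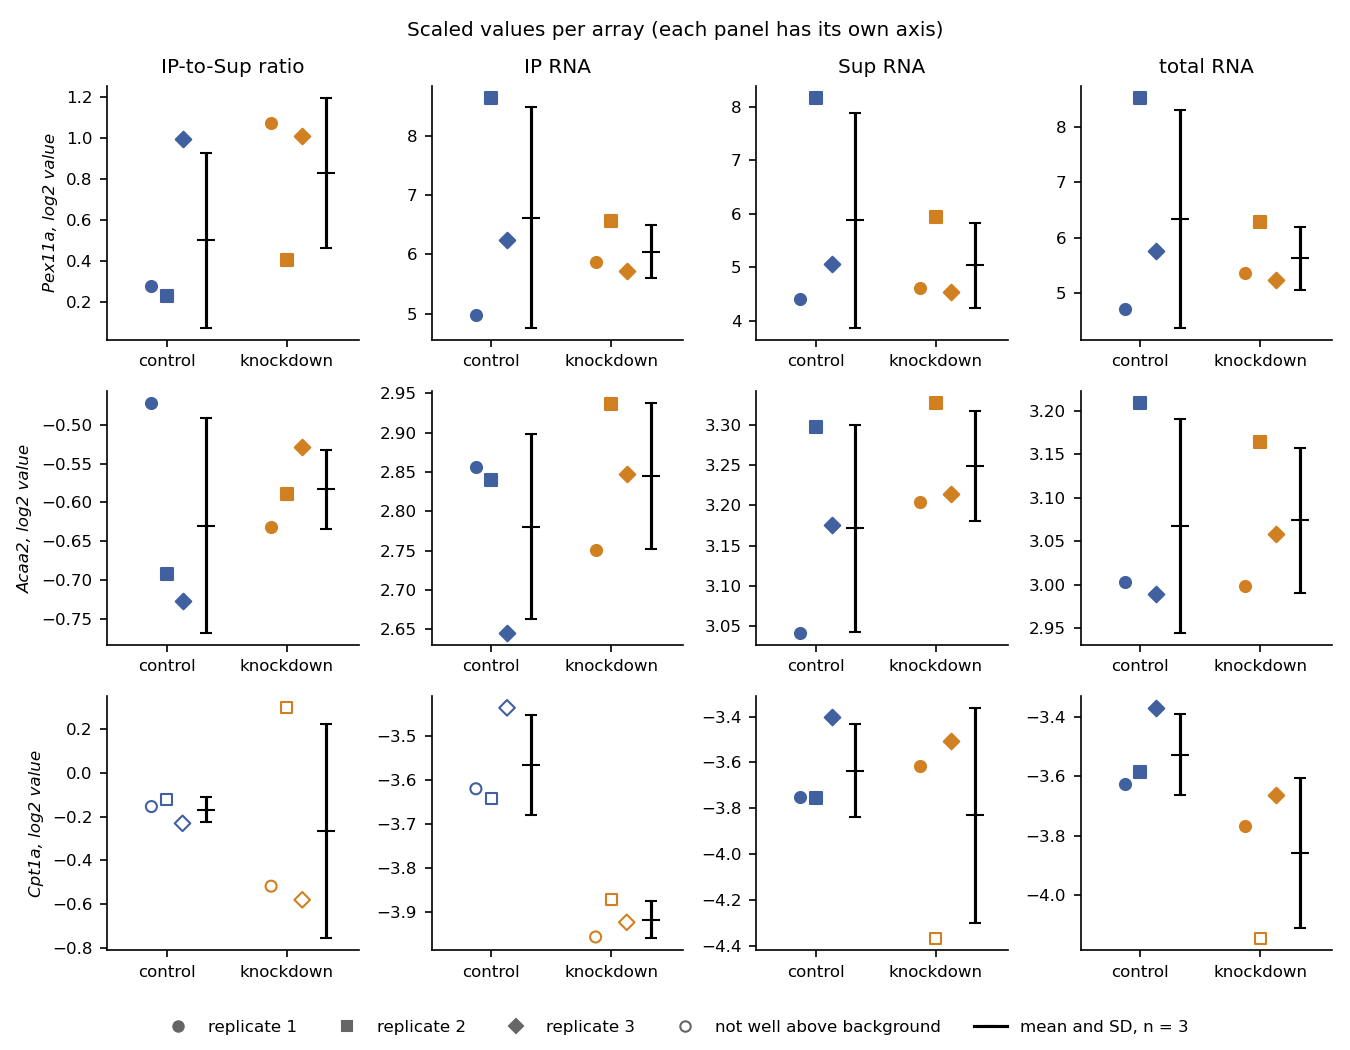
Values of Pex11a, Acaa2 and Cpt1a on each array in log2 units, as the IP-to-Sup ratio (array median at 0) and as IP, Sup and total RNA (less the array's 75th percentile), with each panel on its own axis, replicates by symbol, and the mean and SD of the 3 arrays of a group as a line beside them. Open symbols mark arrays on which the probe was not well above background, such as Cpt1a in IP; control replicate 2 of Pex11a stands at 8.64 in IP and 8.18 in Sup, above every other array.

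Pex11a, the peroxisomal membrane gene, was bright and uneven. Its IP signal was 9808, 41986 and 22036 on control replicates 1 to 3 and 21472, 22460 and 13195 on knockdown replicates 1 to 3. Its Sup signal was 7511, 35340 and 10666 in the control and 9470, 15507 and 6172 in the knockdown. Control replicate 2 was the brightest array in both fractions, although its dye-normalisation factors were the lowest. Before dye normalisation the contrast was wider, with a raw Cy5 brightness of 18818 on control replicate 2 beside 1343 to 6086 on the other 5 arrays and a raw Cy3 brightness of 13418 beside 1698 to 4061.

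The high value of control replicate 2 was seen in all of its spots. Its lowest Pex11a spot was 21715 in Sup and 34314 in IP. The highest spot of any other array was 16993 in Sup and 26117 in IP, so the spots did not overlap. All 60 Pex11a spots were well above background in both channels.

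Many Pex11a spots carried an outlier mark in Cy5. The scanner software marked 29 of the 60 as non-uniform, where 0.70% to 2.54% of all spots on an array were so marked in Cy5. After spots with any outlier mark had been left out, 29 of 60 remained in Cy5 and 56 of 60 in Cy3. By array the Cy5 count was 2, 2 and 6 spots in the control and 6, 8 and 5 in the knockdown, so the IP values of control replicates 1 and 2 rest on 2 spots each. Their total RNA, which used spots unmarked in both channels, rests on no more than these. The spot SD was 0.056 to 0.39 in IP and 0.042 to 0.12 in Sup on the log2 scale. With the marked spots kept, the differences between groups were 0.30 for the ratio, -0.46 for IP RNA, -0.81 for Sup RNA and -0.59 for total RNA, none past the test.

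**Figure D2:**
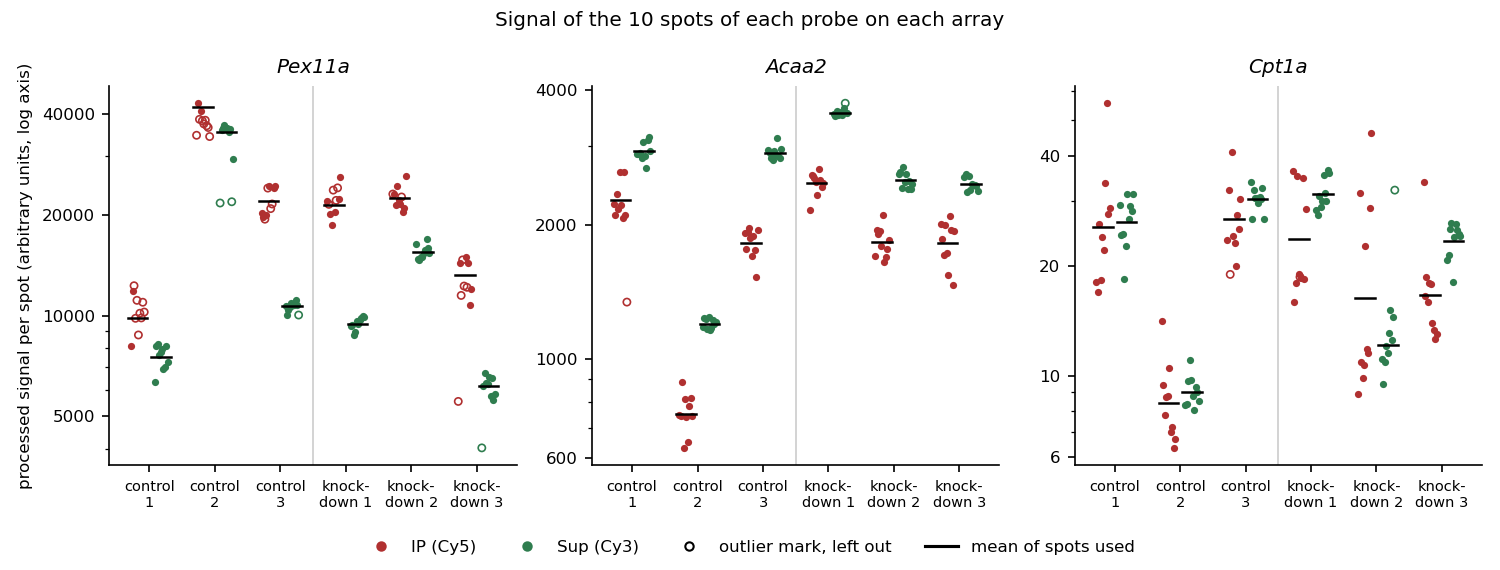
Processed signal of every spot of the Pex11a, Acaa2 and Cpt1a probes by array, on a log axis, in IP (Cy5) and Sup (Cy3), with a line at the mean of the spots used and open symbols for spots left out for an outlier mark. The Pex11a spots of control replicate 2 run from 21715 in Sup and 34314 in IP upwards and do not overlap those of the other arrays, and the Acaa2 spots lie close together on each array, more so in Sup than in IP.

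The IP-to-Sup ratio of Pex11a was 0.28, 0.23 and 0.99 in the control and 1.07, 0.41 and 1.01 in the knockdown. It was above the array median on all 6 arrays, with the same caution about dye bias. Control replicate 3 and knockdown replicates 1 and 3 were near 1, and the other 3 arrays were below 0.5. The control mean ratio was 0.50 ± 0.43 and the knockdown mean 0.83 ± 0.37 (SD, n = 3). The difference, knockdown minus control, was 0.33, and the 95% interval ran from -0.31 to 0.97, or 0.806-fold to 1.96-fold (limma, unadjusted p = 0.271, adjusted p = 1; exact two-sided permutation p = 0.2). The groups overlapped, and 19.1% of tested probes had a larger difference in either direction. Without control replicate 2 the difference was 0.19, and with no dye normalisation it was -0.12.

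IP RNA of Pex11a was 4.97, 8.64 and 6.24 in the control and 5.87, 6.56 and 5.71 in the knockdown. The 3 knockdown arrays lay within the control range, which control replicates 1 and 2 set. The control mean was 6.62 ± 1.86 and the knockdown mean 6.04 ± 0.45 (SD, n = 3). Knockdown minus control was -0.57, and the 95% interval ran from -2.47 to 1.32 (limma, adjusted p = 0.866; exact two-sided permutation p = 0.8).

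Sup RNA of Pex11a was 4.41, 8.18 and 5.06 in the control and 4.62, 5.95 and 4.54 in the knockdown. The control mean was 5.88 ± 2.02 and the knockdown mean 5.04 ± 0.79 (SD, n = 3). The difference, knockdown minus control, was -0.84, and the 95% interval ran from -2.94 to 1.26 (limma, unadjusted p = 0.38, adjusted p = 1; exact two-sided permutation p = 0.7). Only 0.674% of tested probes had a larger Sup difference in either direction, but its standard error was 0.91.

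Total RNA of Pex11a was 4.72, 8.54 and 5.76 in the control and 5.35, 6.29 and 5.23 in the knockdown. Replicate 2 was the highest array in each group, and it was so in 10 of 10 settings. The control mean was 6.34 ± 1.97 and the knockdown mean 5.62 ± 0.58 (SD, n = 3). Knockdown minus control was -0.71, and the 95% interval ran from -2.63 to 1.21 (limma, unadjusted p = 0.419, adjusted p = 0.856; exact two-sided permutation p = 0.8).

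The lower mean of Pex11a in the knockdown rested on 1 control array. Without control replicate 2 the difference was 0.44 in IP RNA, 0.31 in Sup RNA and 0.39 in total RNA, so that the sign turned in all 3. The scan as a block gave the same values, since it removes that array.

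**Figure D3:**
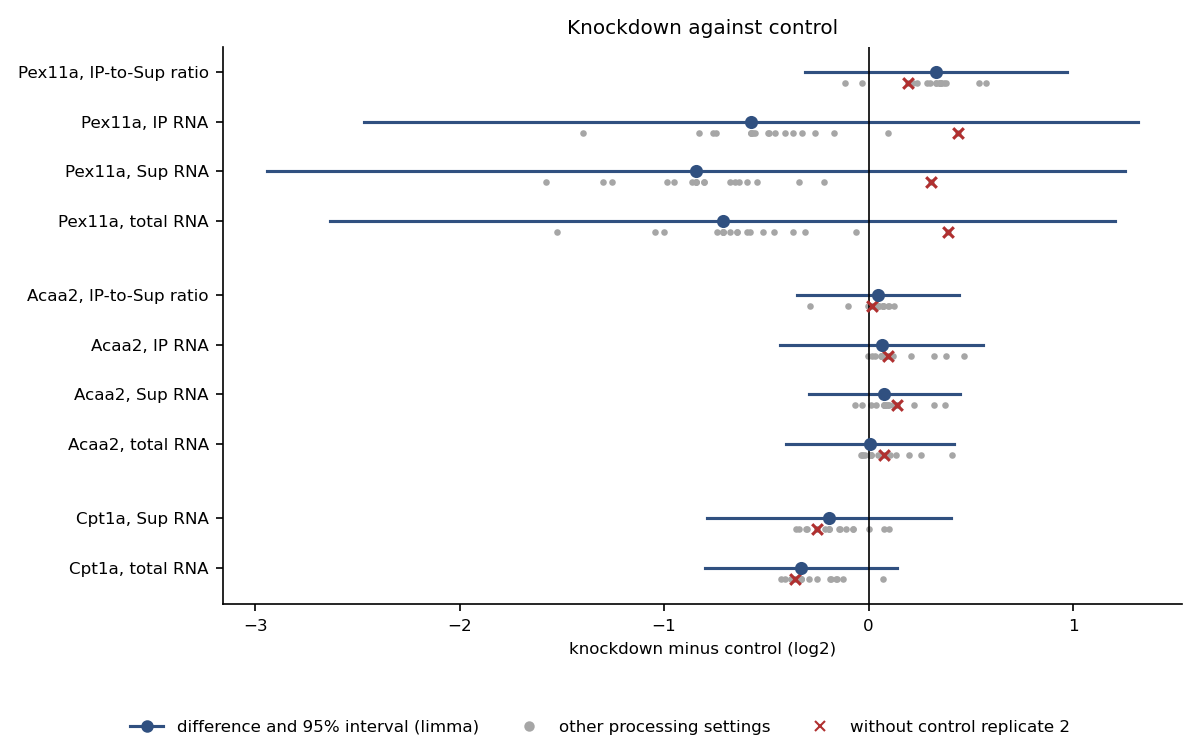
Knockdown minus control on the log2 scale for Pex11a, Acaa2 and, where it was above background, Cpt1a, with 95% limma intervals from all 6 arrays, the value without control replicate 2 as a cross and the values under the other processing settings, other arrays left out included, as grey points. Every interval covers 0; the Pex11a intervals are the widest, and its total RNA moves from -0.71 to 0.39 without control replicate 2.

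No member passed the adjusted threshold of 0.05 in any comparison, and over all tested probes limma called 0 in each. For the ratio this was 0% of 27127 probes, with 2.98% at an unadjusted p under 0.05. For IP RNA it was 0% of 27183 probes, with 4.09% at an unadjusted p under 0.05. For Sup RNA it was 0% of 48519 probes, with 1.21%, and for total RNA 0% of 47647 probes, with 4.36%. No member was among these unadjusted calls. The groups overlapped for every member measured in the ratio, in IP RNA and in Sup RNA, where 7.21%, 11.6% and 5.12% of tested probes had groups that did not overlap. The precision differed between the genes. The median half-width of the 95% interval over all probes was 0.53 for the ratio and 0.54 for total RNA. Acaa2 and Cpt1a had narrower intervals than that in total RNA, and Pex11a had a wider one. For Cpt1a the sum includes Cy5 signal that was not above background. In Sup RNA, where Cpt1a was measured, the median half-width was 0.49, and the Cpt1a interval, from -0.79 to 0.40, was wider than that.

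The spread of Pex11a between arrays of a group was among the largest on the array with levels scaled by the 75th percentile. Its pooled within-group SD of total RNA was 1.45, and 51 of 45721 probes with a value on all 6 arrays, or 0.11%, had a larger one, beside a median SD of 0.28. In Sup RNA its SD of 1.53 was exceeded by 38 of 48311 probes and in IP RNA its SD of 1.36 by 81 of 25297. Its ratio varied far less, with an SD of 0.40 that 26.2% of probes exceeded, and IP and Sup were high and low on the same arrays.

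Acaa2 stood at the other end with this scaling. Its pooled SD of total RNA was 0.11, and 95.9% of probes had a larger one. The share with a larger SD was 97.7% in IP RNA, 94.8% in Sup RNA and 96.0% for the ratio. This place depended on the processing. With quantile normalisation its SD was 0.19 in total RNA, which 73.1% of probes exceeded, and 0.20 in Sup RNA, which 56.5% exceeded. With normexp and loess 28.6% of probes had a larger SD in total RNA, and with no centring or scaling its SD was 0.58, which 76.4% exceeded. For Cpt1a the SD of total RNA was 0.20, which 73.8% of probes exceeded, and that of Sup RNA was 0.36, which 26.8% exceeded.

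Control replicate 2 stood above the mean of the other 2 control arrays by 3.30 in the total RNA of Pex11a, or 9.84-fold, and 20 of 45721 probes had a larger excess. The excess was 3.45, or 10.9-fold, in Sup, where 9 of 48311 probes had a larger one, and 3.03, or 8.19-fold, in IP. In the ratio control replicate 2 was 0.41 below the other control arrays, but 0.56 above them with no dye normalisation and 0.99 below them with quantile normalisation. Pex11a was not alone in this, since 492 probes had an excess above 2 in total RNA on that array, against 6 with a deficit below -2. Without control replicate 2 the SD of Pex11a total RNA was 0.64, which 2.80% of probes exceeded.

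Quantile normalisation, which gives each array the same distribution of values, narrowed the excess. The Pex11a excess on control replicate 2 was then 1.48 in total RNA, where 587 probes had a larger one, 2.08 in Sup RNA, where 48 did, and 1.09 in IP RNA, where 1559 of 25297 did. Its SD was then 0.71 in total RNA, which 2.41% of probes exceeded, and 0.59 in IP RNA, which 12.9% exceeded. With no centring or scaling the excess was 1.75 in total RNA, 1.98 in Sup RNA and 1.51 in IP RNA. In that setting 21.3% of probes had a larger SD in total RNA. Control replicate 2 was the highest array for Pex11a in IP, Sup and total RNA under 10 of 10 settings of normalisation, scaling and spot use. Only this array was in its scan, so the scan and the culture cannot be told apart.

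**Figure D4:**
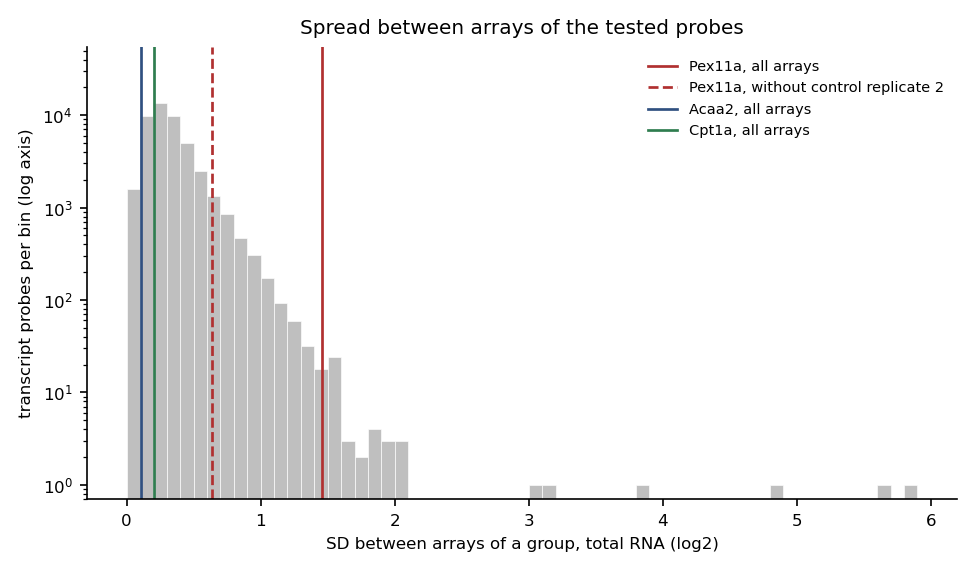
Pooled within-group SD of total RNA on the log2 scale for 45721 transcript probes, as a histogram with the number of probes on a log axis, and Pex11a, Acaa2 and Cpt1a as lines (Pex11a without control replicate 2, 0.64, dashed). With this scaling Acaa2 (0.11) lies at the low end, Cpt1a (0.20) below the median of 0.28, and Pex11a (1.45) in the far right tail, where 51 probes lie beyond it.

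The sign of the ratios was steadier than the sign of their differences between groups. Pex11a was above the array median on all 6 arrays in 10 of 10 settings, by 0.015 at the least, with quantile normalisation. Acaa2 was below the array median on all 6 arrays in 10 of 10 settings, by 0.27 at the least, with no dye normalisation. For both genes, no centring and spike-in centring only shift an array as a whole. They cannot move a probe relative to the array median, so these settings add nothing to either count. The authors' deposited table also keeps all spots, so it nearly repeats the setting with outlier spots kept. For Acaa2 the values less the array median ran from -0.725 to -0.520 in that table and from -0.726 to -0.524 with outlier spots kept.

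The named probes whose total RNA ran most like that of each gene were ranked by Pearson's r over the 6 arrays, which share channels, scaling and scans, so r is a description of these arrays. For Pex11a these were Duox1 (r = 0.97), which encodes a dual oxidase, Gsdmd (r = 0.93), which encodes the pore-forming gasdermin D, and Tm9sf1 (r = 0.90). Each had its highest array in control replicate 2: Duox1 was at 4.40 there against 3.06 to 3.38 elsewhere, Gsdmd at 4.94 against 3.57 to 4.07, and Tm9sf1 at 4.93 against 3.87 to 4.17. Without that array r was 0.84, 0.48 and 0.21, and with quantile normalisation over all 6 arrays it was 0.79, 0.22 and -0.66.

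For Acaa2 the most alike were Gsdmd (r = 0.86), Duox1 (r = 0.85) and Pex11a (r = 0.84), which without control replicate 2 had r of 0.74, 0.93 and 0.67. With quantile normalisation these turned to -0.40, -0.85 and -0.89, so they describe this scaling alone. For Cpt1a they were Hspb7 (r = 0.96), a small heat shock protein gene, Atg3 (r = 0.96), which encodes an enzyme of autophagosome formation, and Lhx1 (r = 0.89), a LIM-homeobox transcription factor gene. With quantile normalisation r was 0.71, 0.94 and 0.59. In total RNA Hspb7 was at -4.12 to -3.41 and Atg3 at -3.45 to -2.85, low as Cpt1a was. Lhx1 was at -1.14 to -0.71. Each was lowest on knockdown replicate 2, as Cpt1a was, and the sum for Cpt1a includes Cy5 signal that was not above background. Among the 3 genes themselves no sign held across the settings. Over them r ran from -0.89 to 0.88 between Pex11a and Acaa2, from -0.77 to 0.25 between Pex11a and Cpt1a, and from -0.81 to 0.89 between Acaa2 and Cpt1a, each over 6 arrays.

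Of the wider pathway, 1 more gene had a named probe, but its signal was too low to be tested. The lists of carnitine shuttle, mitochondrial and peroxisomal oxidation, peroxisome, regulator, m6A and cell type marker genes held 161 genes, of which 4 had a named probe, the 3 genes above and Ppara. Ppara encodes the nuclear receptor that switches on many fatty acid oxidation genes, Cpt1a and Pex11a among its known targets. Its probe was well above background in 2 of 60 Cy5 spots and 12 of 60 Cy3 spots, with an IP signal of 10.9 to 31.1 and a Sup signal of 5.42 to 19.0. Only knockdown replicate 1 passed in Cy3 and no array passed in Cy5, so Ppara was not tested and a change in it was not detectable at this signal.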

How the data were processed

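Spot intensity values in the deposited files came from Agilent Feature Extraction 11.0.1.1, per the file headers, which subtracts background and balances the dyes (a linear factor, then lowess). For 27920 probes the authors also deposited log2 values in 12 columns. In every column these equal the log2 mean processed signal less 1 constant (largest departure 5.00e-09) of unknown origin. The medians were 1.45, 1.21 and 1.28 (IP, control), 1.52, 1.36 and 1.38 (IP, knockdown), 1.54, 1.46 and 1.64 (Sup, control) and 1.67, 1.77 and 1.56 (Sup, knockdown). The deposited columns cover Pex11a and Acaa2; Cpt1a was not used from there.

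From the processed signal, spots with an outlier mark were left out per channel, and the log2 values of a probe's spots were averaged; total RNA used spots unmarked in both channels. The ratio was centred on the array median and levels on the 75th percentile. A probe counted as well above background on an array when at least 50% of its used spots did, and was tested when it did so on at least 3 of 6 arrays (both channels for the ratio, either for total RNA). Groups were compared by limma 3.58.1 (lmFit, eBayes) in R 4.3.3, with version 1.17.8 of data.table for reading, adjusted by Benjamini-Hochberg over all tested probes at 0.05, after the code had been tested on simulated data. The number of arrays limits the precision.

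Genes were named through RefSeq accessions of GRCm38.p6, matched without versions; the headers name mm9, so no coordinates are given. The genes and pathway lists were chosen with earlier results of these data known. Named are the 3 genes, listed genes with a named probe, and for each gene the 3 named probes, well above background in either channel on all 6 arrays, with the highest r.

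Equal replicate numbers were checked for pairing by correlating deviations from group means. The 3 pairs gave 0.180 to 0.345 for total RNA and 0.323 to 0.582 for Sup RNA, all over the mark of 0.1, but -0.0031 to 0.093 for the ratio and 0.069 to 0.303 for IP RNA.

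The alternatives were other background correction, dye normalisation, scaling, filters, spot rules, each array left out, replicate and scan blocks, and array weights. For total RNA, leaving marked spots out of both channels repeats the reported setting by construction, so it adds nothing to a count of settings. Normexp (offset 50) used median signals in place of the planned mean signals; spike-in centring used 15 of 102 probes known as spike-ins by their names.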

Additional observations from a re-analysis of the deposited data

How the results depend on the processing

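Of 198 values of the 3 genes under the alternatives, 0 passed the adjusted threshold and 23 had the opposite sign. Only the Sup RNA of Pex11a with spike-in centring had an unadjusted limma p under 0.05. Its difference was -0.99 (unadjusted p = 0.0200, adjusted p = 0.9996), with a standard error of 0.42 that all 3 genes shared there. With no dye normalisation the ratio difference was -0.12 for Pex11a and -0.10 for Acaa2, and with quantile normalisation -0.031 and -0.29. Leaving out 1 array gave 0.19 to 0.58 (ratio), -1.40 to 0.44 (IP), -1.58 to 0.31 (Sup) and -1.52 to 0.39 (total) for Pex11a, -0.0016 to 0.13, -0.0034 to 0.11, 0.012 to 0.14 and -0.038 to 0.078 for Acaa2, and -0.36 to 0.074 (Sup) and -0.43 to -0.19 (total) for Cpt1a. The scan as a block gave 0.44, 0.31 and 0.39 for Pex11a in IP, Sup and total RNA. Array weights gave 0.098 for Pex11a in IP and 0.0036 for Cpt1a in Sup. With no centring or scaling Cpt1a was at 0.10 in Sup and 0.073 in total RNA. Spike-in centring gave -0.066 in Sup and -0.020 in total RNA for Acaa2, and leaving marked spots out of both channels, chosen after seeing the data, -0.029 in Sup. The cause of these changes of sign was not tested.

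The 4 comparisons had 0 adjusted calls, except 12 (Sup) and 1 (total) with spike-in centring, 2 (IP), 1 (Sup) and 1 (total) with array weights, 1 (IP) and 1 (total) with the scan as a block, and 0 to 1 (IP and total) with 1 array left out, the 1 arising without control replicate 2. At an unadjusted p under 0.05, counts over the alternatives ran from 455 to 2799 (ratio; 809 as reported), 98 to 3757 (IP; 1111), 65 to 3500 (Sup; 585) and 68 to 4417 (total; 2076). Single arrays moved them. Without control replicate 1 they were 1669 (ratio), 2042 (IP), 1417 (Sup) and 3148 (total), without control replicate 3 1298 (ratio), without knockdown replicate 1 420 (IP) and 1117 (total), without knockdown replicate 2 626 (IP) and 1306 (total), and without knockdown replicate 3 495 (ratio). Their direction moved with the scaling: in IP 198 were higher and 913 lower, but 1111 and 95 with spike-in centring and 604 and 147 in the authors' deposited table. In total RNA 149 were higher and 1927 lower, but 518 and 160 in that table. In the ratio 441 were higher and 368 lower, but 263 and 1405 with quantile normalisation.

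With the replicate block every difference was the same by construction, 0 probes passed, and the unadjusted counts were 859, 1880, 3500 and 3978 for the ratio, IP, Sup and total RNA. The pairing changed no call; the Sup RNA of Pex11a had an unadjusted limma p of 0.0880 with the block and an adjusted p of 0.73. The signal limits Cpt1a, which IP did not measure, and the 2 used Cy5 spots limit Pex11a on control replicates 1 and 2.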
